A study of Mus musculus with 37 samples.

Results

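The comparison described here is that of the livers of sires given HFPO-DA at 0.1 mg/kg, the lowest dose of the study, with the livers of sires given the vehicle. Its members were chosen by their labels, as the male mice at these 2 doses, and they are 10 of the 37 mice measured, with 5 mice at 0.1 mg/kg and 5 at 0 mg/kg. HFPO-DA (the ammonium salt of a perfluorinated ether acid used in making fluoropolymers) was given by oral gavage once a day in deionized water, and the vehicle sires received the water alone. All sires were wild-type F0 adults of the outbred CD-1 stock, about 6 weeks old at the first dose, and received 84 to 85 doses over the 70 days before mating and a mating period of 14 days. Of the 25 sires dosed per group, 5 were sampled, each from its own mouse. Sections of fixed, embedded liver were scraped from slides and assayed by TempO-Seq, in which pairs of short probes are ligated on their transcript and counted by sequencing. The spread and the test of each gene were taken from all 19 sires, which also include 5 at 0.5 mg/kg and 4 at 5 mg/kg.

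PPARα is a nuclear receptor that is activated by fatty acids and by fibrate drugs, pairs with RXR, and binds direct repeats of a hexamer with a spacer of 1 base in or near its target genes. In rodent liver its targets encode the proteins that take up and activate fatty acids, shorten them in peroxisomes and mitochondria, hydroxylate them at the omega end and make ketone bodies. Prolonged activation is known for enlarging rodent hepatocytes and increasing their peroxisomes. The question put to the lowest dose was which of these genes shifted first, and which stayed near the level of the vehicle sires.

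Some libraries stood apart before any comparison was made. Total counts ranged from 6947711 to 9365709 in the vehicle sires and from 4012015 to 10451739 at 0.1 mg/kg, and did not differ beyond the spread between sires (exact permutation test, two-sided, p = 0.905, n = 5 and 5). The library of 4012015 counts, of sire 4 at 0.1 mg/kg, also had the lowest mean correlation with the other 9 libraries, 0.793 against 0.844 to 0.884. Vehicle sire 2 and sire 1 at 0.1 mg/kg carried acute-phase transcripts far above the other sires, so results are also given without this pair where it matters. Values below are CPM, the counts of a probe scaled to the library total by the TMM method, and a gene with several probes is represented by the probe with the highest total count unless another probe is named. The liver label was met by the hepatocyte markers: 9 of the 10 were on the table, 1 of the 9 passed the unadjusted threshold (lower), their summed level was 34585 to 49356 CPM in the vehicle sires and 34058 to 47030 at 0.1 mg/kg, and Alb alone gave 4126 to 8695 and 6684 to 8729 CPM. Of the 12 adipocyte markers 6 were abundant enough to test and 0 of the 6 passed the unadjusted threshold given below. Among all genes tested 1.45% were higher and 1.28% lower at that threshold. The summed level of the adipocyte markers was 4636 to 7738 CPM in the vehicle sires and 4533 to 7316 CPM at 0.1 mg/kg. The defining adipocyte gene Adipoq reached at most 0.624 CPM, Plin1 0.272 CPM and Retn 0.645 CPM, and Lep and Cidea had no count in any of the 10 sires. The sum therefore came from other genes on the list. The summed levels of Kupffer cell and macrophage markers were 112 to 492 CPM in the vehicle sires and 154 to 322 CPM at 0.1 mg/kg.

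No probe was called at 0.1 mg/kg. Of 16103 probes tested, 0 (0%) had an adjusted p below 0.10 by edgeR's quasi-likelihood test. At an unadjusted p under 0.05, 218 probes (1.35%) were higher and 192 (1.19%) lower than in vehicle sires, together 2.55% of the probes. In the same fit 53 probes (0.329%) were called between 0.5 mg/kg and vehicle and 1120 (6.96%) between 5 mg/kg and vehicle. DESeq2 fitted to the same 19 sires called 9 of the 7513 probes to which it gave an adjusted p (0.12%), all 9 of them higher and from 8 genes, and with all 37 mice it called 19 of 16855 (0.113%). Members called by DESeq2 in the 19 sires were Acsl1, Cyp4a32, Keg1 (with 2 probes), Socs2, Cpox, Hspa5, Nat8f5 and LOC100505173. Without a filter on low counts edgeR called 28 genes higher and 23 lower, Acsl1 among them (adjusted p = 0.00213). The same fit gave Saa1, an acute-phase gene high in 1 sire of each group, an adjusted p of 7.2e-26. It put the SE of Cyp4a10 at 0.19, against 0.56 with the filter. Its calls were therefore not used to judge any gene. What follows therefore describes sizes, intervals and an unadjusted threshold, and a gene said to pass the unadjusted threshold is not one called by edgeR with its filter.

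A minority of the genes listed as PPARα targets had higher levels. The lists name 176 genes of 11 roles, of which 174 had a probe and 164 were tested. They hold whole families of these roles, and whether each member is a target of PPARα was not tested. Below, a target is a listed gene, and shares and medians are those of the whole lists. Of these 20 (12.2%) were higher and 5 lower at an unadjusted p under 0.05, beside 165 (1.45%) and 146 (1.28%) of all 11378 genes tested by their top probe. Both shares were above the background, that of the lower genes less so, and most targets did not pass. Intervals lay within 1 log2 unit of 0 for 52.4% of the targets and 30.8% of all genes. Whether unlike precision has a part in these shares was not tested. Their median log2 fold change was 0.14, beside -0.02 for all genes, and the medians of the same targets were 0.31 at 0.5 mg/kg and 0.75 at 5 mg/kg, comparisons that share the vehicle sires. Calls by edgeR at an adjusted p below 0.10 among the 164 were 0 at 0.1 mg/kg, 24 at 0.5 mg/kg and 81 at 5 mg/kg. Without vehicle sire 2 and sire 1 at 0.1 mg/kg, 17 targets were higher and 7 lower, with a median log2 fold change of 0.14. In that fit 1.58% of all genes were higher and 1.10% lower. Since the lists were drawn up with earlier results of these mice known, no test was made over them.

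Single sires show how small the shift of the whole group was. Relative to the mean of the vehicle sires, the median log2 level of the 164 targets was -0.18, -0.15, 0.04, 0.13 and 0.25 in the vehicle sires and -0.23, 0.17, 0.20, 0.23 and 0.32 at 0.1 mg/kg. Of the exposed sires 4 of 5 lay above the vehicle median, and the groups overlapped. The lowest value was that of sire 4, the shallowest library, where the median over all genes tested was also low, -0.17. Vehicle sire 1 stood as high as the exposed sires.

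**Figure D1:**
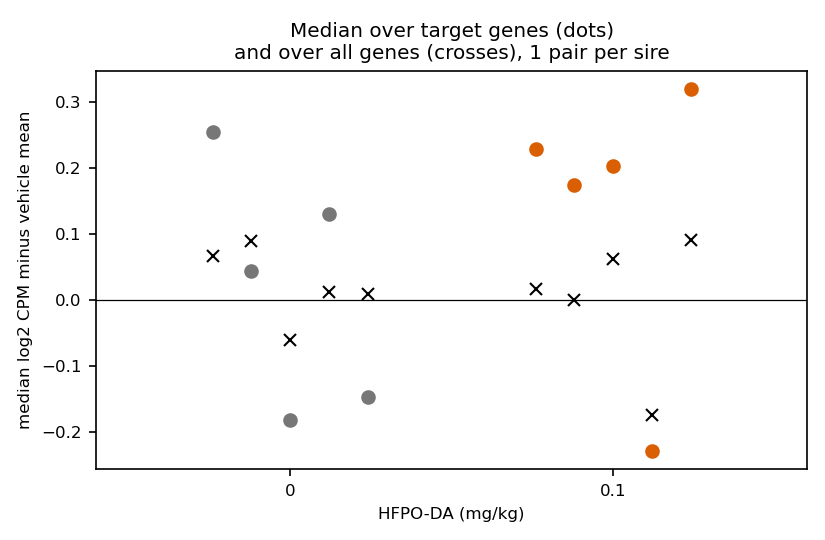
Median log2 CPM over the 164 PPARα target genes (dots) and over all genes tested (crosses), each relative to the mean of the 5 vehicle sires, with 1 dot and 1 cross per sire and the dose on the x axis. The exposed sires reach 0.32, the vehicle sires 0.25, and 1 exposed sire lies at -0.23.

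Acsl1, a gene of fatty acid activation, separated the groups without overlap on its top probe. Acsl1 (chr8:46471037-46536051 in GRCm38, plus strand, protein-coding) encodes the long-chain acyl-CoA synthetase that joins fatty acids to coenzyme A before they are oxidized or stored. Its level was 946, 1299, 1488, 1761 and 1984 CPM in the vehicle sires and 2337, 2457, 2538, 2627 and 2686 CPM at 0.1 mg/kg. Every exposed sire lay above every vehicle sire, which was true of 48 of the 11378 genes (0.422%), and the exposed sires were close to each other. The log2 fold change was 0.76 ± 0.20 (SE; 95% interval 0.35 to 1.16; unadjusted p = 0.00063, adjusted p = 0.872), a 1.69-fold higher level. A second probe of Acsl1 gave 0.68 ± 0.22 (SE). On it the groups overlapped, with 53.1 to 122 CPM in the vehicle sires and 98.3 to 185 CPM at 0.1 mg/kg. DESeq2 gave the first probe an adjusted p of 0.0446 in the 19 sires and 0.0508 with all mice. At 0.5 mg/kg Acsl1 stood at 3055 ± 783 CPM (SD, n = 5) and at 5 mg/kg at 3726 ± 827 CPM (SD, n = 4), log2 fold changes of 1.03 and 1.32 against vehicle. Leaving out each of the 10 sires in turn gave 0.63 to 0.88.

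The other genes of uptake and activation did not pass the unadjusted threshold as higher, although 12 of the 14 tested, Acsl1 included, had a log2 fold change above 0. Of the 14 tested, Acsl1 was the only gene higher at the unadjusted threshold, and Slc27a2 was the only one lower. Slc27a2, a transporter that also activates very-long-chain fatty acids, had 923, 939, 1267, 1454 and 1723 CPM in the vehicle sires and 679.6, 705, 766, 794 and 928 CPM at 0.1 mg/kg on its top probe, a log2 fold change of -0.70 ± 0.24 (SE). Its other 2 probes pointed the opposite way, with 0.20 ± 0.18 and 0.45 ± 0.21 (SE), so no direction is given for the gene. Cd36, a fatty acid translocase, stood at 3.48 to 25.7 CPM in the vehicle sires and 0.46 to 22.4 CPM at 0.1 mg/kg, with an interval of -0.56 to 1.39 log2 units. It was among the genes that differed between 0.5 and 0.1 mg/kg. Without vehicle sire 2 and sire 1 at 0.1 mg/kg, the log2 fold change of Cd36 was 1.10 (edgeR, unadjusted p = 0.0337), and 2 of the 14 were higher. Slc27a1, another transporter, had a log2 fold change of 0.75 with an interval of -0.05 to 1.55.

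**Figure D2:**
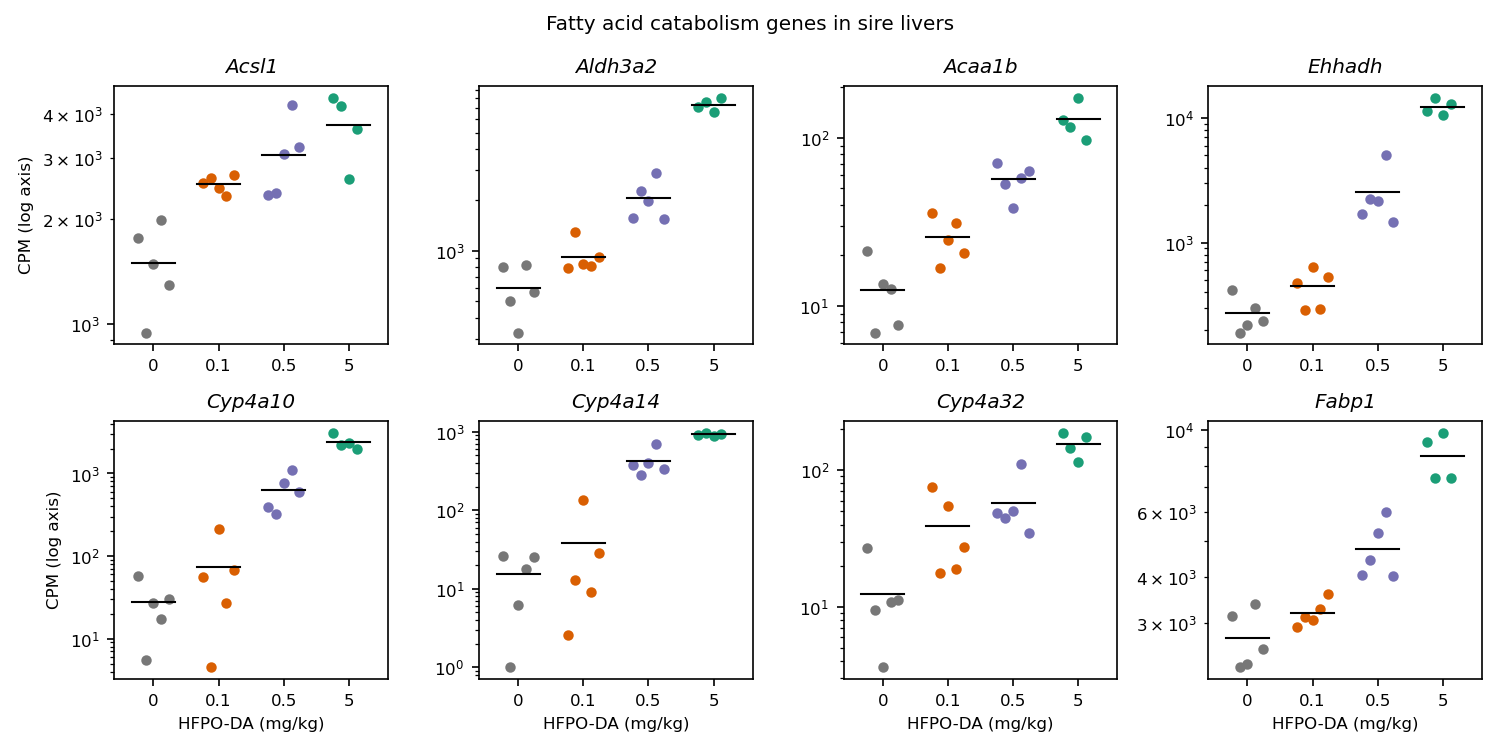
CPM on a log axis in each of the 19 sires by dose in mg/kg, for 8 genes of fatty acid catabolism; each dot is a sire and each bar the mean of a dose. Acsl1 at 0.1 mg/kg lies wholly above the vehicle sires, Cyp4a10 and Cyp4a14 are spread over more than 10 times among the exposed sires, and Fabp1 overlaps the vehicle sires.

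Of the Cyp4a genes of omega-oxidation, Cyp4a10, Cyp4a14, Cyp4a31 and Cyp4a32 had large fold changes and a wide spread between sires. The Cyp4a genes lie side by side on chromosome 4 and encode fatty acid omega-hydroxylases, textbook markers of PPARα activation in rodents, and Aldh3a2 oxidizes the fatty aldehydes that follow. Of the 11 omega-oxidation genes tested, 5 were higher at the unadjusted threshold and 0 lower, while the median of the 11 was -0.05. Those higher were Aldh3a2 and the Cyp4a genes just named. Cyp4a12a, with a mean of 430 CPM in the vehicle sires, had a log2 fold change of -0.05 (interval -0.46 to 0.36). Cyp4a12b had one of -0.43 (interval -1.23 to 0.38). Cyp4a32 (chr4:115600969-115621602) had 3.61, 9.45, 10.95, 11.2 and 26.8 CPM in the vehicle sires and 17.7, 18.9, 27.6, 54.4 and 75.4 CPM at 0.1 mg/kg, with 3 exposed sires above every vehicle sire. Its log2 fold change was 1.65 ± 0.41 (SE; unadjusted p = 0.000428, adjusted p = 0.872). Cyp4a10 (chr4:115518264-115533649) had 5.6, 17.3, 27.2, 29.97 and 57.6 CPM in the vehicle sires and 4.5, 26.7, 55.8, 67.8 and 215 CPM at 0.1 mg/kg, with a log2 fold change of 1.43 ± 0.56 (SE). Sire 3 carried the highest value and sire 2 the lowest of all 10, so the groups overlapped widely. Cyp4a14 (chr4:115486200-115496142) also overlapped, with 0.995, 6.19, 17.9, 25.1 and 26.1 CPM in the vehicle sires and 2.56, 9.2, 13.1, 28.3 and 136 CPM at 0.1 mg/kg.

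A single sire decided the direction of Cyp4a14. Its log2 fold change of 1.32 ± 0.64 (SE) became -0.19 without sire 3 at 0.1 mg/kg, and that of Cyp4a10 became 0.50 and that of Cyp4a31 0.41, from 0.88. Sire 3 was the highest exposed sire for Cyp4a10, Cyp4a14, Cyp4a31, Ehhadh and Hsd17b11 alike, but not for Acsl1 or Cyp4a32. Cyp4a32 stayed at 1.26 or above with any sire left out. Aldh3a2 (chr11:61223417-61267464) had 327, 500.2, 569, 796 and 822 CPM in the vehicle sires and 785, 806, 832, 912 and 1282 CPM at 0.1 mg/kg, where 3 exposed sires lay between 785 and 832 CPM against a highest vehicle value of 822. Its log2 fold change was 0.62 ± 0.22 (SE). Cyp4a10, Cyp4a14, Cyp4a31 and Cyp4a32 are paralogues, and whether their probes share reads was not tested.

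The peroxisomal β-oxidation enzymes were mixed. Of the 20 tested, 4 were higher at the unadjusted threshold and 0 lower, with a median of 0.22. Acaa1b, a thiolase of the last step (chr9:119148023-119157093), had 6.96, 7.76, 12.6, 13.5 and 21.3 CPM in the vehicle sires and 16.8, 20.8, 24.7, 31.1 and 35.7 CPM at 0.1 mg/kg, with a log2 fold change of 1.05 ± 0.28 (SE; unadjusted p = 0.000887, adjusted p = 0.972). The highest vehicle sire exceeded 2 of the exposed ones. Its paralogue Acaa1a gave 0.81 ± 0.26 (SE) on the top probe, from 242 to 484 CPM to 422 to 1046 CPM, but -0.14 ± 0.23 and 0.18 ± 0.51 (SE) on 2 further probes, and whether the paralogues share reads was not tested. Ehhadh, the bifunctional enzyme of the middle steps, had 191, 219, 237, 301 and 419 CPM in the vehicle sires and 291, 293, 476, 528 and 644 CPM at 0.1 mg/kg, with a log2 fold change of 0.71 ± 0.28 (SE), and reached 2525 ± 1461 CPM at 0.5 mg/kg (SD, n = 5). Hacl1, which shortens branched 2-hydroxy acids, had a log2 fold change of 0.58 ± 0.20 (SE), with 423 to 646 CPM in the vehicle sires and 574 to 1110.0 CPM at 0.1 mg/kg.

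Among 22 peroxins and peroxisomal transporters tested, Abcd3, which carries acyl-CoA into peroxisomes, was the only one past the unadjusted threshold (log2 fold change 0.52 ± 0.23, SE), and 4 of the 10 leave-one-out fits took it below. Pex11a, a factor in peroxisome division, had 14.8, 23.9, 24.4, 29.7 and 31.3 CPM in the vehicle sires and 20.5, 22.1, 44.1, 46.2 and 46.3 CPM at 0.1 mg/kg. Of the exposed sires 3 lay above every vehicle sire and 2 within their range, and the log2 fold change had an interval of -0.04 to 1.11.

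Few genes of the mitochondrial route passed the unadjusted threshold. Slc25a20, the carnitine-acylcarnitine carrier, had 13.6, 15.3, 23.9, 24.2 and 30.03 CPM in the vehicle sires and 28.9, 29.4, 31.1, 41.4 and 47.4 CPM at 0.1 mg/kg, with a log2 fold change of 0.73 ± 0.25 (SE), and the groups overlapped through the highest vehicle sire alone. Cpt2 gave 0.59 with an interval of -0.02 to 1.20, and Cpt1a, the regulated entry step, gave -0.67 with an interval of -1.79 to 0.44 at 7.87 to 15.7 CPM in the vehicle sires. Of 19 β-oxidation enzymes Eci1, an isomerase for unsaturated fatty acids, was the one past the unadjusted threshold (0.61 ± 0.21, SE), and 16 of the 19 (84.2%) had a 95% interval within 1 log2 unit of 0, beside 30.8% of all genes. Such a share depends on the width of the intervals too, and so is no measure of stability. The SE was 0.18 for Acadm, beside a median of 0.64 over genes. Acadm, the medium-chain dehydrogenase, had an interval of -0.17 to 0.56 and Decr1, a reductase for unsaturated fatty acids, one of -0.06 to 0.68. For ketone bodies, Slc16a1, which exports them, gave 0.61 ± 0.23 (SE), and without the acute-phase pair 0 of the 6 ketone body genes tested were higher.

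**Figure D3:**
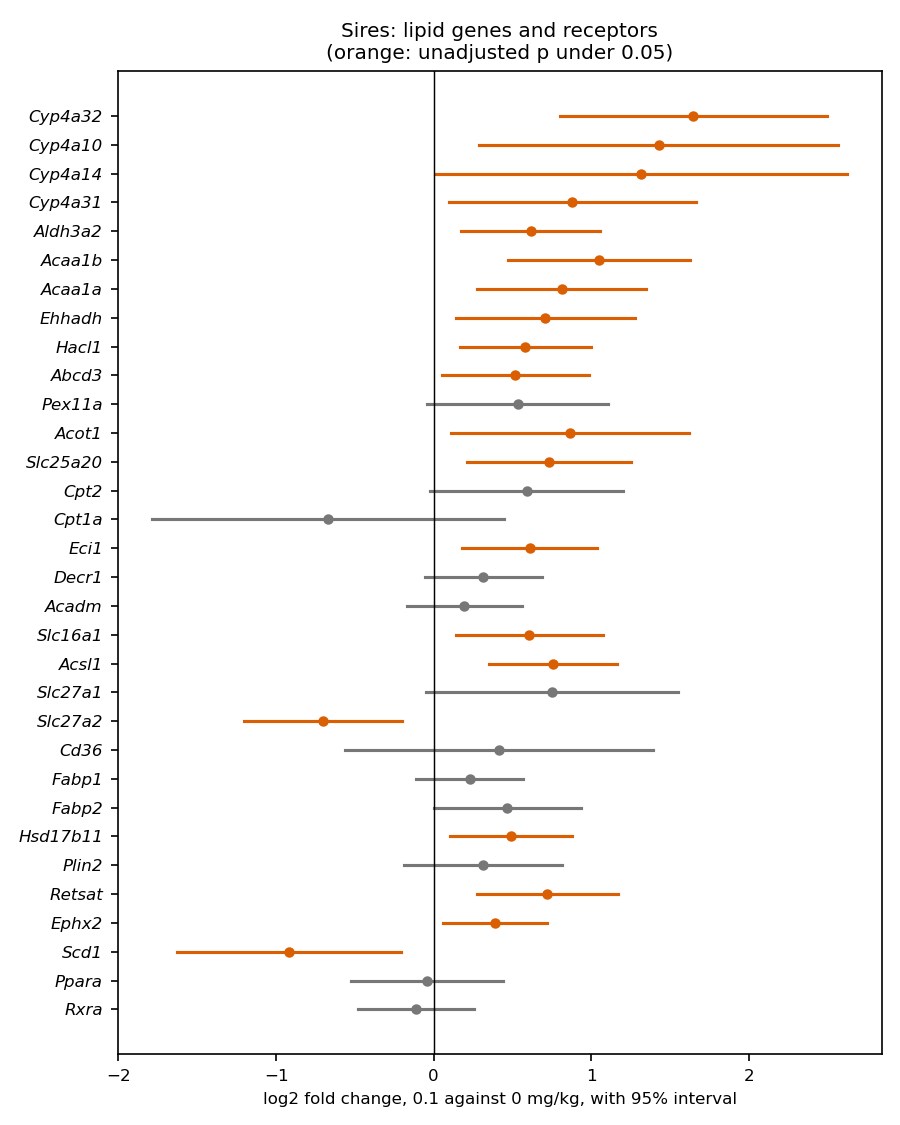
Log2 fold change between 0.1 mg/kg and vehicle sires (dot) with its 95% interval (line) for 30 lipid genes and the receptors Ppara and Rxra; orange marks an unadjusted p under 0.05, and no adjusted p was below 0.10. Acsl1 spans 0.35 to 1.16 and Cyp4a14 spans 0.01 to 2.62.

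Carriers, thioesterases and lipid droplet genes gave few differences. Of 7 fatty acid binding proteins 0 passed the unadjusted threshold, near the share of all genes (1.45% higher and 1.28% lower). Fabp1, the abundant liver form, had 2272, 2313, 2545, 3121 and 3371 CPM in the vehicle sires and 2921, 3061, 3105, 3277 and 3595 CPM at 0.1 mg/kg, with an interval of -0.11 to 0.57 beside a log2 change of 1.64 at 5 mg/kg. Acot1, a cytosolic thioesterase, had 13.8, 16.6, 19.6, 43.7 and 67.1 CPM in the vehicle sires and 27.6, 51.3, 67.1, 69.6 and 77.4 CPM at 0.1 mg/kg (0.86 ± 0.37, SE) and lost the unadjusted threshold in 5 of the 10 leave-one-out fits. Hsd17b11, a lipid droplet dehydrogenase, had 439, 440.2, 600.2, 692 and 709.7 CPM in the vehicle sires and 734, 764, 764, 797 and 995 CPM at 0.1 mg/kg. Its groups did not overlap on this probe, and its log2 fold change of 0.49 ± 0.19 (SE) was matched by 0.49 ± 0.23 (SE) on a second probe. On that second probe the groups overlapped, with 107 to 206 CPM in the vehicle sires and 173 to 292 CPM at 0.1 mg/kg. Plin2, the coat protein of droplets, had an interval of -0.19 to 0.82 on its top probe. Its other 2 probes were higher past the unadjusted threshold, at 0.59 ± 0.24 and 2.71 ± 1.30 (SE). The latter probe had means of only 0.40 CPM in the vehicle sires and 2.77 CPM at 0.1 mg/kg.

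Among the remaining targets Retsat, which saturates retinol, had 195, 195, 223, 377 and 414 CPM in the vehicle sires and 387, 395, 398, 550.1 and 584 CPM at 0.1 mg/kg, with a log2 fold change of 0.72 ± 0.22 (SE; unadjusted p = 0.00265). Ephx2, the soluble epoxide hydrolase, gave 0.39 ± 0.16 (SE). Scd1, the stearoyl-CoA desaturase, was lower at the unadjusted threshold, with 160.5, 279, 658, 724 and 818 CPM in the vehicle sires, 137, 223, 318, 336 and 382 CPM at 0.1 mg/kg and a log2 fold change of -0.92 ± 0.35 (SE), whereas it was 1.76 at 5 mg/kg. Hdc, which makes histamine, had no count in any exposed sire and 0.349 to 4.09 CPM in the vehicle sires. The transcript of the receptor itself did not pass the unadjusted threshold. Ppara had 45.2, 55.9, 59.3, 68.9 and 73.2 CPM in the vehicle sires and 43.5, 45.3, 49.2, 71.6 and 83.9 CPM at 0.1 mg/kg with an interval of -0.53 to 0.44, and Rxra an interval of -0.48 to 0.25. Of 17 receptors and partners tested 0 passed the unadjusted threshold, near the share of all genes (1.45% higher and 1.28% lower).

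Of the 20 higher targets 11 stayed past the unadjusted threshold whichever of the 10 sires was left out: Acsl1, Acaa1a, Acaa1b, Aldh3a2, Cyp4a32, Eci1, Hacl1, Hsd17b11, Retsat, Slc16a1 and Slc25a20. The other 9 were lost in 1 to 5 of the 10 fits. They include Cyp4a10, Cyp4a14, Cyp4a31 and Ehhadh, and these 4 were lost together without sire 3 at 0.1 mg/kg. Of 10 further probes of the 20 genes with at least 5 CPM, 9 were higher at 0.1 mg/kg and 3 passed the unadjusted threshold. Without the acute-phase pair, vehicle sire 2 and exposed sire 1, 12 of the 20 stayed past the unadjusted threshold and 8 did not. Those lost were Slc16a1, with a log2 fold change of 0.42, Ehhadh with 0.58, Cyp4a31 with 0.68, and Abcd3, Ephx2, Acot1, Abhd5 and Ces1d. Their unadjusted p-values by edgeR ran from 0.0689 to 0.185 without the pair. The log2 fold change without the pair was 0.63 for Acsl1, 1.18 for Cyp4a32 and 1.32 for Cyp4a14.

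Several targets differed between 0.1 and 0.5 mg/kg. In this comparison, which shares the 0.1 mg/kg sires with the one above, 12 probes of 10 genes were higher at 0.5 mg/kg at an adjusted p below 0.10 (0.0745% of 16103) and 0 lower. These were Ehhadh, Retsat, Acot1, Hsd17b11, Cd36, Cyp4a10, Cyp4a14, Cyp4a31, Aldh3a2 and Adam11, and all but Adam11 are on the target lists. At an unadjusted p under 0.05, 40 of the 164 targets were higher at 0.5 than at 0.1 mg/kg, beside 1.71% of all genes higher and 1.75% lower. Ehhadh differed by 2.50 log2 units, Cyp4a14 by 3.47 and Cd36 by 2.81, whereas Acsl1 differed by 0.27 and Hacl1 by 0.02 without a call. Against vehicle, Acsl1 gave 0.76 at 0.1 mg/kg and 1.03 at 0.5 mg/kg on the log2 scale, and Ehhadh gave 0.71 and 3.21.

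**Figure D4:**
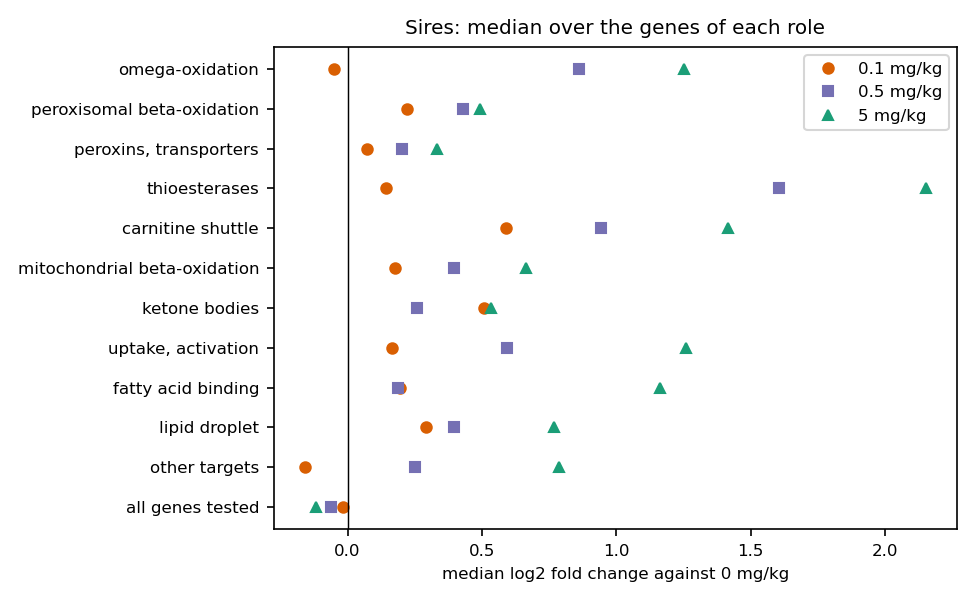
Median log2 fold change against vehicle sires over the tested genes of each of 11 target roles and over all genes tested, at 0.1 (circles), 0.5 (squares) and 5 mg/kg (triangles); the 3 doses share the vehicle sires. At 0.1 mg/kg the medians run from -0.16 to 0.59 and at 5 mg/kg from 0.33 to 2.15, with all genes at -0.02 and -0.12.

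Outside the target lists, Keg1 is given for the probe of smaller p, which is not its most abundant one. Keg1 (chr19:12695786-12719902) is named for its expression in the kidney. The level on this probe was 88.04, 100.3, 157, 163 and 168 CPM in the vehicle sires and 194, 283, 286, 295 and 368 CPM at 0.1 mg/kg, without overlap, a log2 fold change of 1.08 ± 0.22 (SE; adjusted p = 0.269). On its more abundant probe, with 113 to 297 CPM in the vehicle sires and 254 to 457 CPM at 0.1 mg/kg, the groups overlapped and the log2 fold change was 0.93 ± 0.24 (SE). The log2 fold changes of the first probe against vehicle were 0.95 at 0.5 mg/kg and 0.996 at 5 mg/kg. Socs2, an inhibitor of growth hormone signalling, had 1.49, 1.63, 3.48, 5.03 and 6.17 CPM in the vehicle sires and 11.3, 14.6, 15.5, 16.9 and 19.9 CPM at 0.1 mg/kg, with a log2 fold change of 2.13 ± 0.55 (SE; adjusted p = 0.872). At 0.5 mg/kg it stood at 7.01 ± 2.49 CPM (SD, n = 5). Cpox, an enzyme of haem synthesis, gave 0.72 ± 0.18 (SE), and Gstm2, a glutathione transferase, had the smallest p of those whose exposed sires all lay below the vehicle sires, with 79.2, 84.8, 102, 144 and 166 CPM in the vehicle sires, 36.5, 51.4, 54.1, 58.2 and 72.03 CPM at 0.1 mg/kg and a log2 fold change of -1.08 ± 0.26 (SE). All exposed sires lay below all vehicle sires for 40 of the 11378 genes (0.352%), Gstm2 among them.

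Some chaperones of the endoplasmic reticulum had higher levels in most exposed sires. Of 16 genes of the unfolded protein response tested, 3 were higher and 1 lower at the unadjusted threshold, with a median of 0.29. The shares over all genes were 1.45% higher and 1.28% lower. Hspa5, the main lumenal chaperone (BiP), had 4835, 5804, 5805, 5843 and 9579 CPM in the vehicle sires and 7958, 9411, 10068, 11007 and 19842 CPM at 0.1 mg/kg, with a log2 fold change of 0.87 ± 0.23 (SE; adjusted p = 0.972). Sire 2 at 0.1 mg/kg stood far above the rest, and without it the log2 fold change was 0.59. The groups overlapped through vehicle sire 3. Its other 2 probes gave 0.86 ± 0.22 and 0.78 ± 0.23 (SE), and the first of these was the probe that DESeq2 called. Hsp90b1 gave 0.45 ± 0.18 on its top probe and 0.13 ± 0.20 on a second one, and Sdf2l1 gave 0.63 ± 0.26 (SE). Without sire 2 at 0.1 mg/kg, Hsp90b1 gave 0.32 and Sdf2l1 gave 0.36 on their top probes. Creld2, a secreted chaperone, is not among the 16 genes and was named here after its values were seen. It had 274, 335, 467, 478 and 791 CPM in the vehicle sires and 493, 616, 879, 1189 and 1966 CPM at 0.1 mg/kg (1.13 ± 0.29, SE). Herpud1, a factor of protein degradation from this compartment, was lower, at -0.80 ± 0.26 (SE). At 5 mg/kg the log2 fold changes were -0.32 for Hspa5, -0.23 for Creld2, -0.38 for Hsp90b1 and -0.77 for Sdf2l1, all 4 below 0.

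Hspa5, Creld2 and Hsp90b1 were each highest in sire 2 at 0.1 mg/kg, and their promoters are shown because each holds the element that the factors of this response bind, known as ERSE (CCAAT and CCACG with 9 bases between them, searched on both strands). The sequences are RefSeq's for GRCm38.p6, the 250 bases before RefSeq's start of the gene in the direction of the gene, with each match in capitals. The GENCODE models of Hspa5, Hsp90b1 and Fabp1 begin inside these windows, and the match of Hspa5 lies inside its GENCODE model, whereas those of Hsp90b1, Creld2 and Fabp1 lie before theirs.
Hspa5 (chr2:34771840-34772089, plus strand): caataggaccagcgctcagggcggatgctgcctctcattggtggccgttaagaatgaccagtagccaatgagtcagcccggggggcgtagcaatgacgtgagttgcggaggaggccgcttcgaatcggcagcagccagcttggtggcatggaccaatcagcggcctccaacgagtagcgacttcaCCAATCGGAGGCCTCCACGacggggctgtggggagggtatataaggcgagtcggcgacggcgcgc
Creld2 (chr15:88819396-88819645, plus strand): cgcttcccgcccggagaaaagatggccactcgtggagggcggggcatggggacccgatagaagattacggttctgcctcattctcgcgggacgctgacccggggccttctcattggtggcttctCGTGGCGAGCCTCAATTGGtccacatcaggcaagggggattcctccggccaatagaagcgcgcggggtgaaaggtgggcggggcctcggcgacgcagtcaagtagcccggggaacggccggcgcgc
Hsp90b1 (chr10:86705445-86705694, minus strand): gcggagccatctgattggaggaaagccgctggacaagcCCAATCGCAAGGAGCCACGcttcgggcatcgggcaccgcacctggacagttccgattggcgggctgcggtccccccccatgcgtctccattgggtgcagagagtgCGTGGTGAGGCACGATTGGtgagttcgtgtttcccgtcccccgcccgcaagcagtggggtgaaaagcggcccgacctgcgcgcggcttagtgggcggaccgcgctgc
Of the 8814 tested genes with a promoter in the RefSeq set, 18 held the element (0.204%), and 2 of the 16 unfolded protein response genes did. For the targets, the same window was searched for the PPARα hexamer repeat written as AGGNCA, 1 base of any kind and AGGNCA again, on both strands. It was found in 29 of the 8814 genes (0.329%) and in 1 of 123 target genes, Fabp1, whose level did not pass the unadjusted threshold. In the sequence of Fabp1 the match is on the opposite strand.
Fabp1 (chr6:71199629-71199878, plus strand): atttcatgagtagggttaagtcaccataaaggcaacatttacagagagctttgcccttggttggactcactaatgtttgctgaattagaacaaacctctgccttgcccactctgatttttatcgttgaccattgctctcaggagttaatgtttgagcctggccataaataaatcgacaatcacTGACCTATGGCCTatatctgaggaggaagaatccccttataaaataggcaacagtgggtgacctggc
The motifs were chosen after the values had been seen. A match is a description of these letters only, and elements farther from the start were not searched.

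**Figure D5:**
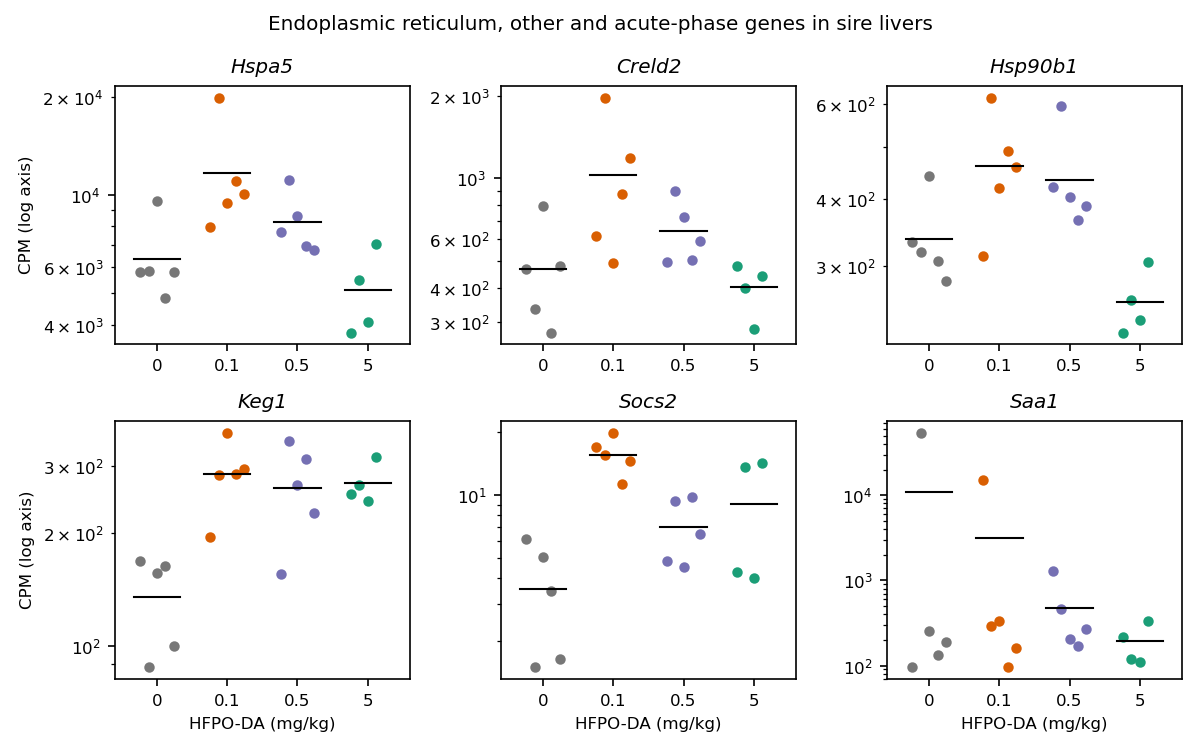
CPM on a log axis in each of the 19 sires by dose in mg/kg for Hspa5, Creld2, Hsp90b1, Keg1, Socs2 and Saa1; each dot is a sire and each bar the mean of a dose. Hspa5 and Creld2 have their highest mean at 0.1 mg/kg, Keg1 is above vehicle at every dose, and Saa1 is high in 1 vehicle sire and 1 sire at 0.1 mg/kg.

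The acute-phase genes were set apart by single sires. Of 22 tested, 8 were lower and 0 higher at the unadjusted threshold, with a median of -1.09, beside 1.28% lower and 1.45% higher among all genes. Saa1, a plasma protein of inflammation, had 95.2, 134, 190.4, 253 and 54371 CPM in the vehicle sires and 96.8, 160.1, 289.6, 336 and 14936 CPM at 0.1 mg/kg. Orm2 had 5.12, 5.45, 9.28, 12.3 and 2891 CPM and 1.16, 4.89, 7.59, 14.3 and 109.8 CPM. The highest value of each belonged to vehicle sire 2 and sire 1 at 0.1 mg/kg. Without this pair 2 were lower and 1 higher, with a median of -0.18, beside 1.10% lower and 1.58% higher among all genes.

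Few genes of the other liver groups passed the unadjusted threshold. Among all 11378 genes 1.45% were higher and 1.28% lower at that threshold, so a count of 0 in lists of this length lies near that share. At 5 mg/kg 16 of 33 complement genes were called at an adjusted p below 0.10. At 0.1 mg/kg 0 of the 33 passed the unadjusted threshold. The same count of 0 held for 25 cholesterol synthesis genes, 17 bile acid synthesis genes, 33 oxidative phosphorylation genes, 16 apolipoproteins, 18 mitotic genes, 20 genes of p53 and apoptosis, 18 NRF2 targets and 5 AhR targets. Intervals lay within 1 log2 unit of 0 for 27 of 33 oxidative phosphorylation genes (81.8%), 14 of 16 apolipoproteins (87.5%) and 22 of 33 complement genes (66.7%), but for 0 of 18 mitotic genes. These shares depend on how wide the intervals were, so they do not rank the groups by stability. Of 29 coagulation genes 1 was lower, Hgfac, the activator of hepatocyte growth factor, with 84.00 to 243 CPM in the vehicle sires and 86.7 to 108 CPM at 0.1 mg/kg (-0.64 ± 0.25, SE). Of 19 lipogenesis genes Scd1 was lower. Of 19 CAR and PXR targets 2 were higher, Cyp3a41a, a steroid hydroxylase, with 145, 222, 245, 270.0 and 317 CPM in the vehicle sires and 326, 339.7, 354, 357 and 361 CPM at 0.1 mg/kg without overlap, and Abcc4, an exporter that reached at most 6.67 CPM. Of 16 genes of the male growth hormone programme 1 was higher, Mup20 (0.87 ± 0.37, SE), a pheromone-binding urinary protein, but without the acute-phase pair 0 were higher and 2 lower, with Mup20 at 0.40 (unadjusted p = 0.239). The female growth hormone programme had 1 of 14 tested genes higher and 0 lower, and without the acute-phase pair 1 of 12 higher and 0 lower. In bulk liver fewer cells of a type and less RNA per cell cannot be told apart.

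The difference between sires and dams was tested on all 37 mice. The dams were about 11 weeks old at the first dose and received 53 to 65 doses, from 14 days before mating until late lactation, so sex, age, lactation and the length of dosing cannot be told apart in this comparison. For the change from 0 to 0.1 mg/kg, 0 of 18570 probes differed at an adjusted p below 0.10, and 829 (4.46%) did so at an unadjusted p under 0.05. Acsl1 in dams was 1301 ± 256 CPM at 0 mg/kg and 1344 ± 186 CPM at 0.1 mg/kg (SD, n = 5 and 5), a log2 fold change of 0.05 ± 0.19 (SE), and the change in sires exceeded it by 0.70 ± 0.27 (SE; adjusted p = 1). For Hacl1 the change in sires exceeded that in dams by 1.20 ± 0.29 (SE; adjusted p = 0.635), with a log2 fold change of -0.62 in dams. DESeq2 called 4 genes in this comparison, Hacl1 (adjusted p = 0.0954), Nme1, Kcnk5 and Psmc3ip. Its sire minus dam differences were 1.24, 1.13, -2.08 and -17.2 log2 units in that order. The last is too large to be read as the size of a change. Cyp4a14 in dams gave 1.66 ± 0.56 and Gstm2 -0.86 ± 0.29 (SE).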

How the data were processed

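Liver sections of 37 CD-1 mice of both sexes were assayed by TempO-Seq. The deposited table holds raw counts per probe for 30146 probes of 21450 gene symbols. The authors demultiplexed reads with bcl2fastq 2.17.1.14, per the labels, aligned them with Bowtie (version not given in the sources used here), counted them per probe and left out mice of low depth. Replicates were not pooled.

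Counts were tested with edgeR 4.0.16 (quasi-likelihood test, TMM scaling, default filter on low counts, R 4.3.3) in the 19 sires, with 1 mean per dose and 0.1 compared with 0 mg/kg. Adjusted p-values are Benjamini-Hochberg values over all 16103 probes tested, with a threshold of 0.10, and unadjusted p-values are given at 0.05. Intervals are 95% intervals. A gene is represented by the probe with the highest total count. Totals of the 10 sires compared are 4012015 to 10451739 counts. The median SE over genes was 0.64 log2 units, and the smallest 0.14. The difference between sires and dams was an interaction in all 37 mice. DESeq2 1.42.0, other filters, another scaling, other sets of mice, thinning, summing of probes and leaving out each sire were tried. The steps were tested on simulated data.

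Members and gene lists were chosen with earlier results of these data known. Named genes are fixed PPARα targets, genes called, the 10 genes of smallest p in each direction whose groups do not overlap, and up to 4 per list, of which those needed are printed. Creld2, Saa1, Nat8f5 and LOC100505173 were named after their values were seen. Gene positions are those of GENCODE on GRCm38, and promoters those of RefSeq on GRCm38.p6. Each sire is a separate animal. Some items withheld from the text are not reported here.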

Additional observations from a re-analysis of the deposited data

Results flagged for a closer look

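Among the 51 genes printed, each with 5 vehicle sires and 5 sires at 0.1 mg/kg, 16 of 102 gene and group pairs held a sire whose gap to the next exceeded Dixon's critical value of 0.71. About 1 in 20 groups of independent, normally distributed values would do so by chance. CPM values were not tested for this, and the same sires recur across genes, so that rate is no measure of chance here. The same 2 sires gave 9 of the 16.

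Vehicle sire 2 was the highest of its group for Saa1 (54371 CPM), Orm1 (1788 CPM), Orm2 (2891 CPM), Lcn2 (1073 CPM) and Apcs (513 CPM). Sire 1 at 0.1 mg/kg was the highest of its group for Saa1 (14936 CPM), Orm1 (418 CPM), Orm2 (109.8 CPM) and Lcn2 (50.5 CPM). All 5 genes encode acute-phase proteins. The part of this pair in the results was measured by leaving it out, given above.

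Sire 2 at 0.1 mg/kg stood apart for Hspa5 (19842 CPM), Sdf2l1 (484 CPM) and Aldh3a2 (1282 CPM). Vehicle sire 3 stood apart for Hspa5 (9579 CPM). Sire 3 at 0.1 mg/kg was the high sire for Cyp4a14 (136 CPM) and Hsd17b11 (995 CPM). The low sire for Hgfac was sire 4 at 0.1 mg/kg (86.7 CPM), the library of fewest counts.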

How the results depend on the processing

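The low dose gave no called probe by edgeR in most settings, and the exceptions turned on the filter, the tool or 1 sire. Without a filter on low counts 28 genes were called higher and 23 lower, 1206 and 1199 probes passed the unadjusted threshold and 8 target genes were lower; the cause was not tested. A mean of at least 10 counts left 122 probes lower. With 37 mice fitted 602 probes were higher and 723 lower, and 22 genes differed between 0.5 and 0.1 mg/kg. DESeq2 on the 19 sires called 8 genes higher and 26 genes between 0.5 and 0.1 mg/kg. DESeq2 on 37 mice called 14 genes higher and 5 lower, with 609 probes higher, 608 lower and 33 target genes higher at the unadjusted threshold, and 4 genes that differed between sires and dams. With probes of a gene summed, 3 target genes were lower. Leaving out each sire in turn gave 0 to 1 genes called higher (1 without vehicle sire 4 and without sires 2 or 4 at 0.1 mg/kg), 0 lower, 182 to 292 probes higher, 139 to 297 lower, 16 to 29 target genes higher, 3 to 7 lower, and a target median of 0.09 to 0.21. Signs turned for Cyp4a14 (-0.19 without sire 3 at 0.1 mg/kg, range up to 1.62), Ppara (range -0.21 to 0.049, with 0.0089, 0.036, 0.016, 0.049 and 0.037 without vehicle sires 1 or 2 or exposed sires 2, 3 or 4), Rxra (-0.25 to 0.0042, the latter without exposed sire 4) and, without vehicle sire 2, Saa1 (4.23), Orm1 (0.041), Orm2 (1.78) and Lcn2 (2.10), whose lowest values, without exposed sire 1, were -5.64, -1.72, -6.38 and -6.24. Saa1 was 0.39 without the pair of high sires, an alternative added after seeing the data. No paired analysis was possible because the labels give animal numbers that no 2 groups share.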

Other observations

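A probe labelled LOC100505173 had the smallest adjusted p of the comparison by edgeR (0.192) and by DESeq2 on the 19 sires (0.00185). It was detected in an on-or-off manner, with 0, 0.23, 40.6, 83.5 and 96.3 CPM in the sires at 0.1 mg/kg and at most 0.136 CPM in the vehicle sires. More than 10 CPM was counted in 3 of 5 sires given 0.5 mg/kg and 3 of 4 given 5 mg/kg. Among dams the same held for 3 of 5 vehicle mice, 2 of 5 given 0.1 mg/kg, 0 of 4 given 0.5 mg/kg and 2 of 4 given 5 mg/kg. Of all 37 mice, 16 had over 10 CPM and 20 under 1 CPM.

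Nat8f5, an N-acetyltransferase gene, had 4.9, 6.27, 7.34, 9.08 and 16.3 CPM in the vehicle sires and 10.6, 24.8, 29.6, 76.5 and 77.1 CPM at 0.1 mg/kg, with a log2 fold change of 2.31 ± 0.55 (SE; adjusted p = 0.872 by edgeR). Its level at 0.5 mg/kg was 24.9 ± 20.98 CPM (SD, n = 5), and its log2 fold change was 0.92 at the highest dose and 0.78 ± 1.13 (SE) at 0.1 mg/kg in dams.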
